A study of Homo sapiens with 6 samples.

Results

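Lysosomes are acidic compartments in which hydrolases take apart proteins, lipids, glycans and glycogen. Most soluble hydrolases are tagged with mannose 6-phosphate in the Golgi and carried to the organelle by mannose 6-phosphate receptors, while the vacuolar proton pump (V-ATPase) sets the acidity at which they work. Pigment cells use the same machinery for melanosomes, which are lysosome-related organelles, and transcription factors of the TFEB family, MITF among them, are known to bind promoters of lysosomal genes. The genes described here are 47 of the 57688 rows of the table, chosen by name from knowledge of the organelle: 25 hydrolases with their co-factors, 8 membrane and sorting genes, and 14 genes of the proton pump. Earlier results of these data were known when these genes and the other lists below were chosen, so the lists are not independent of the data. Of the 47, 45 had a mean of at least 1 FPKM (reads scaled to gene length and library depth) over the 6 libraries, a level that 12019 rows of the whole table reached.

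The libraries came from WM3248, a human melanoma cell line. In the siPGC1a group (n = 3), cells had been given an siRNA against PPARGC1A, which encodes the transcriptional coactivator PGC1-alpha. In the siNC group (n = 3), cells had been given the AllStars negative control siRNA. Both groups received 30 nM siRNA with Lipofectamine and were harvested after 48 h, and RNA was read as poly(A) transcripts in a stranded kit. Each group had 1 siRNA, so effects of losing PPARGC1A and other effects of that siRNA sequence cannot be told apart. Nothing in the labels said whether the 3 libraries of a group were separate cultures, so that every p-value here rests on a between-library spread that may be technical. In bulk RNA, fewer cells of a type and less RNA per cell cannot be told apart.

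PPARGC1A was measured at 0.4, 0.354 and 0.413 FPKM in the siPGC1a libraries, against 0.932, 1.04 and 0.947 FPKM in the siNC libraries. The groups did not overlap, and the level fell by 60.05% (limma adjusted p = 0.000234, exact permutation p = 0.1, the smallest that 3 against 3 can give). The libraries held an estimated 25180000 to 26440000 reads. Of the 8 melanocyte lineage markers, 7 passed 1 FPKM, with a summed level of 1415 to 1424 FPKM in siPGC1a and 1440 to 1480 FPKM in siNC libraries. Within that sum the markers moved apart: DCT fell by 35.7%, MLANA fell by 45.3%, PMEL fell by 28.6% and MITF fell by 23.8%, while S100B, the most abundant of them, rose by 15.2% (limma adjusted p = 5.89e-06, 0.000639, 0.000186, 0.000335 and 0.000841). SOX10 and TYR did not pass, and TYRP1 was below 1 FPKM. Of the 6 leukocyte markers 0 passed, with a summed level of 1.99 to 2.62 FPKM in siPGC1a and 1.88 to 2.31 FPKM in siNC libraries and PTPRC listed at 0 throughout. Fibroblast markers summed to 9.68 to 11.1 FPKM in siPGC1a and 14.4 to 15.6 FPKM in siNC libraries. Keratinocyte markers summed to 20.7 to 25.8 FPKM in siPGC1a and 20.46 to 21.3 FPKM in siNC libraries, nearly all from KRT10, with KRT1 listed at 0, and endothelial markers stayed under 1 FPKM in both groups. The part of these markers in the results below was not tested.

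Among the members, hydrolases mostly fell and pump genes mostly rose. Of the 24 hydrolase and co-factor genes tested, 14 fell, 2 rose and 8 did not pass a limma adjusted p of 0.05. Of the 13 pump genes tested, 12 rose, 0 fell and 1 did not pass. The 8 membrane and sorting genes were divided, with 3 lower, 2 higher and 3 not past the threshold. Over all 12020 genes tested, 48.1% were called, 25.6% higher and 22.5% lower, so that the members' 33 calls of 45 are to be read against a background in which about every other gene differed. The groups did not overlap in 35 of the 45 members, against 57.2% of all genes tested. Differences are given as siPGC1a minus siNC of log2(FPKM + 1), where the added 1 shrinks the change of genes with low values. The median difference was -0.13 for the hydrolases, -0.028 for the membrane and sorting genes and 0.22 for the pump, against 0.0072 for all genes tested.

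**Figure D1:**
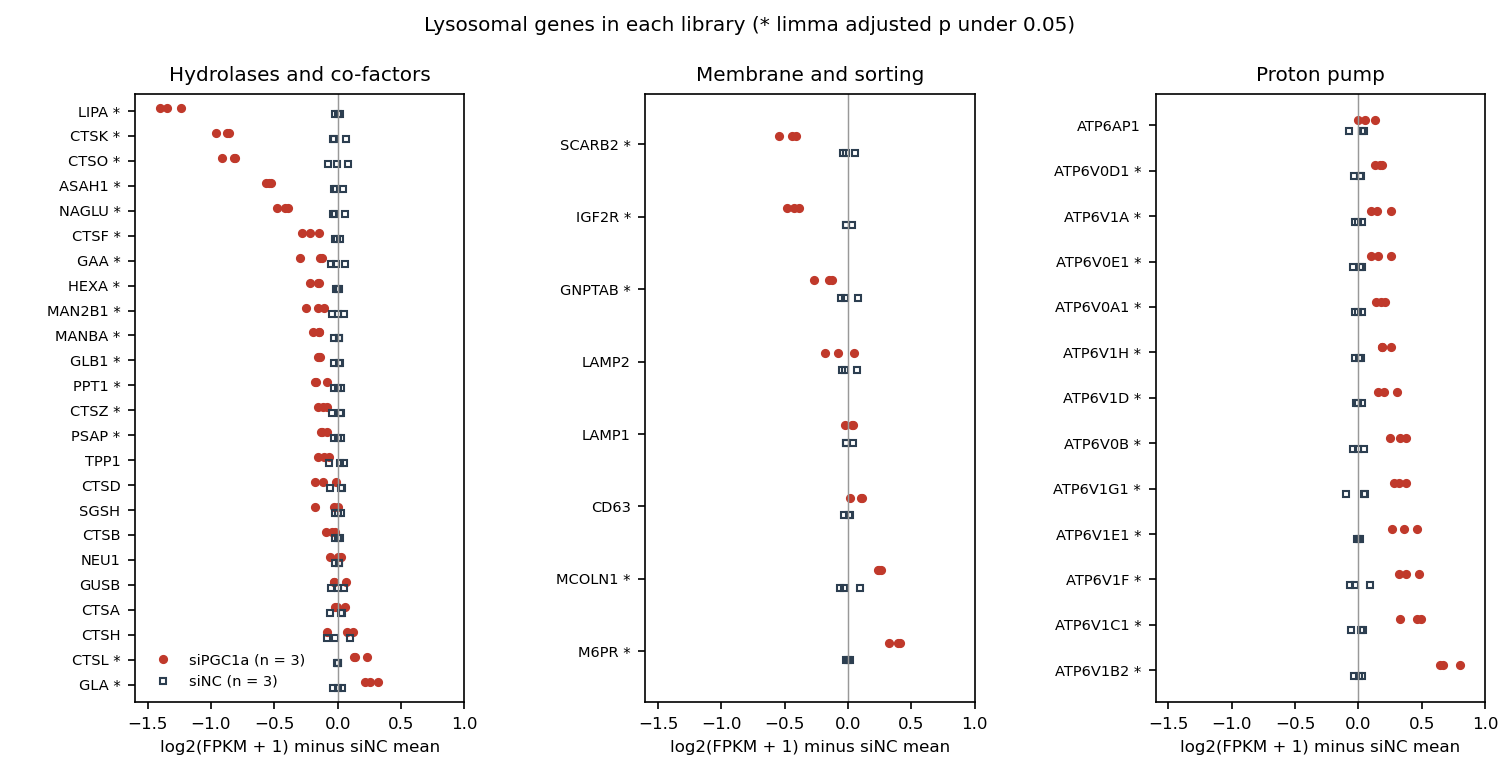
Each tested member in each library, as log2(FPKM + 1) minus the mean of the siNC libraries (x axis); filled circles are siPGC1a (n = 3), open squares siNC (n = 3), and an asterisk marks a limma adjusted p under 0.05. The siPGC1a points of LIPA, CTSK and CTSO lie farthest to the left, and those of 12 of the 13 pump genes lie right of every siNC point.

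The share of genes called depends on their level. Among the 2380 tested genes with a mean of at least 20 FPKM, 41.1% were higher and 20.2% lower. Of the 17 hydrolases at that level, 9 fell and 2 rose, and of the 8 pump genes at that level, 7 rose and 0 fell. Annotated exon length was similar between the sets, with a median of 4866 bases for the hydrolases and 4884 bases for the pump, against 4777 bases for all tested genes with a length. By summed level, the hydrolases other than PSAP came to 877, 902 and 885 FPKM in the siPGC1a libraries, against 971, 992 and 984 FPKM in the siNC libraries. The pump genes summed to 420, 441 and 446 FPKM in siPGC1a and to 348, 360 and 350 FPKM in siNC libraries. The totals of all rows were closer to each other, at 230802 to 236268 FPKM in siPGC1a and 229001 to 231401 FPKM in siNC libraries.

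**Figure D2:**
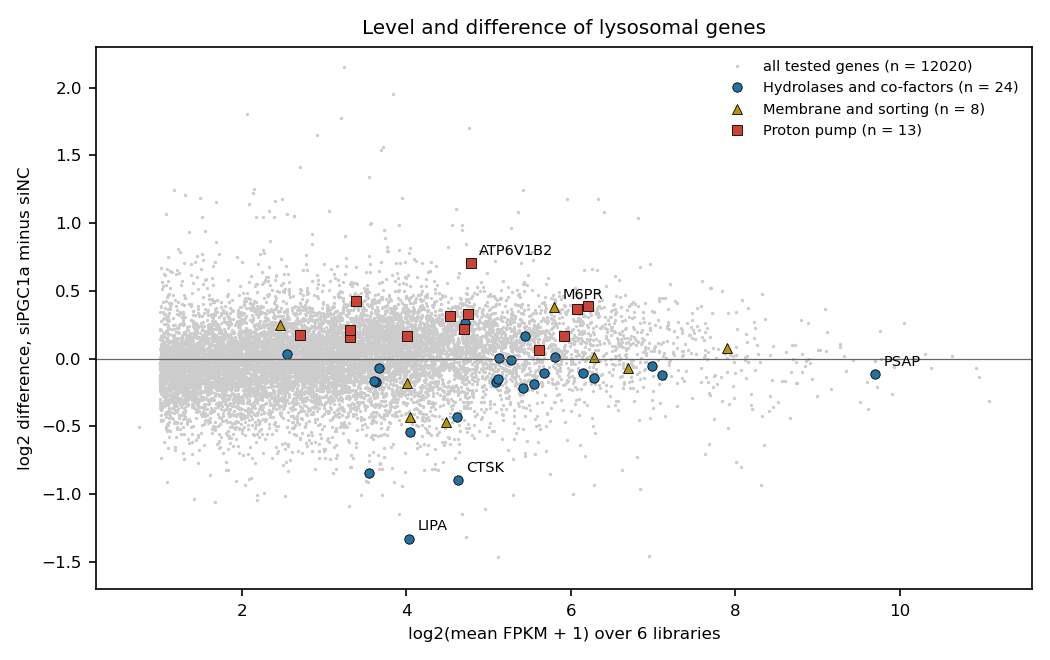
Difference of each gene (y axis, siPGC1a minus siNC, log2 scale) against its mean level over the 6 libraries (x axis, log2 scale), with the members over all 12020 tested genes in grey. The pump genes sit above 0, and LIPA, at -1.33, is the lowest of the members.

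LIPA had the largest fall among the members. It encodes lysosomal acid lipase, which frees cholesterol and fatty acids from cholesteryl esters and triglycerides. LIPA stood at 8.94, 8.19 and 7.83 FPKM in the siPGC1a libraries, against 22.7, 22.03 and 22.4 FPKM in the siNC libraries. Every siPGC1a library lay far below every siNC library, and the level fell by 62.8% (log2 difference -1.33, SE 0.0503, limma adjusted p = 2.86e-07, exact permutation p = 0.1). These values rest on about 1001 to 2948 reads per library. ASAH1, acid ceramidase, which splits ceramide into sphingosine and a fatty acid, had 12.4, 12.1 and 12.6 FPKM in siPGC1a, against 19.1, 18.3 and 18.1 FPKM in siNC libraries. Its groups were apart by several times their spread, and it fell by 33.1% (log2 difference -0.54, SE 0.0406, limma adjusted p = 1.04e-05).

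Other lipid-handling members changed less. GLB1, the beta-galactosidase, and HEXA, the alpha subunit of beta-hexosaminidase, which act in turn on gangliosides, fell by 10.1% and 12.1% (limma adjusted p = 0.00781 and 0.00707). PPT1, which removes fatty acyl groups from proteins, averaged 72.6 ± 2.80 FPKM in siPGC1a and 80.3 ± 1.70 FPKM in siNC libraries (SD, n = 3 each, limma adjusted p = 0.0153). GLA, alpha-galactosidase A, which trims globo-series glycolipids, went the other way. It had 26.8, 27.5 and 28.8 FPKM in siPGC1a, against 22.3, 22.9 and 23.5 FPKM in siNC libraries, without overlap, a rise of 20.7% (log2 difference 0.26, SE 0.0427, limma adjusted p = 0.000884).

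PSAP, the precursor of the saposins that present sphingolipids to these enzymes, was the most abundant member. Its level was 787, 813 and 789 FPKM in siPGC1a and 844, 878 and 862 FPKM in siNC libraries, which did not overlap. PSAP fell by 7.58%, past the threshold (limma adjusted p = 0.0170). The call was lost without siNC replicate 2 (limma adjusted p = 0.0796) and without siNC replicate 3 (0.0722). It was also lost without a filter (limma adjusted p = 0.226) and without a trend (0.0525). The lowest limma adjusted p over all settings tried was 0.00229. Under quantile scaling the difference was 0, but that scaling sets values by rank within each library and so compares ranks only.

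Among the 8 members that are cathepsins other than CTSA, 4 fell, 1 rose and 3 did not pass. CTSK, a collagen-degrading cysteine protease best known from osteoclasts, had 16.5, 15.5 and 16.7 FPKM in siPGC1a libraries, against 32.5, 30.2 and 30.5 FPKM in siNC libraries. The siPGC1a values were all close to the middle of the range between 0 and the siNC values, and CTSK fell by 47.8% (log2 difference -0.90, SE 0.0462, limma adjusted p = 1.34e-06). Of 4 osteoclast markers, ACP5 alone passed 1 FPKM, and their sum was 55.1 to 57.4 FPKM in siPGC1a and 48.0 to 50.7 FPKM in siNC libraries. CTSO, another cysteine protease, had 7.55, 6.92 and 7.50 FPKM in siPGC1a, against 14.8, 13.9 and 13.2 FPKM in siNC libraries. It fell by 47.6%, nearly as much as CTSK (log2 difference -0.85, SE 0.0536, limma adjusted p = 4.39e-06).

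CTSF, also a cysteine protease, had 36.7, 40.4 and 38.4 FPKM in siPGC1a, against 44.8, 45.5 and 44.3 FPKM in siNC libraries. CTSF fell by 14.2% (limma adjusted p = 0.00265), and its groups did not overlap. CTSZ, a carboxypeptidase, averaged 131 ± 3.44 FPKM in siPGC1a and 143 ± 3.55 FPKM in siNC libraries (SD, n = 3 each, limma adjusted p = 0.0250). CTSL, an endopeptidase, was the cathepsin that rose, with 43.8, 43.9 and 46.9 FPKM in siPGC1a, against 39.9, 40.0 and 39.7 FPKM in siNC libraries. All siPGC1a values were above the siNC values, a rise of 12.6% (log2 difference 0.17, SE 0.0399, limma adjusted p = 0.00704).

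The abundant proteases CTSB and CTSD did not pass the threshold. CTSB, a cysteine protease, averaged 123 ± 2.85 FPKM in siPGC1a and 128 ± 1.56 FPKM in siNC libraries (SD, n = 3 each, limma adjusted p = 0.236). CTSB was called lower under quantile scaling alone (limma adjusted p = 0.0157). CTSD, the main aspartic protease of lysosomes, averaged 67.1 ± 3.83 FPKM in siPGC1a and 72.1 ± 2.60 FPKM in siNC libraries (limma adjusted p = 0.110). CTSD was called lower in 4 of the 15 other settings. These were TPM, quantile scaling, sample weights and leaving out siPGC1a replicate 2 (limma adjusted p = 0.0486, 0.00434, 0.0349 and 0.0320, and 0.00434 to 0.287 over all settings). CTSH, an aminopeptidase and the lowest of the tested hydrolases, stood at 4.93 ± 0.426 FPKM in siPGC1a and 4.78 ± 0.367 FPKM in siNC libraries (limma adjusted p = 0.682). TPP1, a tripeptidyl peptidase, averaged 48.2 ± 1.53 FPKM in siPGC1a and 52.1 ± 2.12 FPKM in siNC libraries, just outside the threshold (limma adjusted p = 0.0624). TPP1 was called lower in 3 of the 15 other settings, namely TPM, quantile scaling and the replicate block (limma adjusted p = 0.0370, 0.00694 and 0.0453).

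Of the glycan-degrading members, NAGLU changed most. It encodes an N-acetylglucosaminidase that acts on heparan sulfate. NAGLU had 20.4, 20.1 and 19.2 FPKM in siPGC1a, against 26.5, 28.3 and 26.8 FPKM in siNC libraries, with no overlap, and fell by 26.8% (log2 difference -0.43, SE 0.0431, limma adjusted p = 5.09e-05). SGSH, the sulfamidase of heparan sulfate breakdown, averaged 11.4 ± 0.825 FPKM in siPGC1a and 12.0 ± 0.216 FPKM in siNC libraries (SD, n = 3 each, limma adjusted p = 0.322). The mannosidases MAN2B1 and MANBA fell by 11.3% and 11.7% (limma adjusted p = 0.0159 and 0.00782). GAA, which degrades glycogen, fell by 12.3% to 42.8 ± 2.91 FPKM in siPGC1a, against 48.8 ± 1.91 FPKM in siNC libraries (SD, n = 3 each, limma adjusted p = 0.0170).

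NEU1, a sialidase, and its partner CTSA, a carboxypeptidase that protects it, did not pass, nor did GUSB, beta-glucuronidase. Their ratios of means, siPGC1a over siNC, were 0.994, 1.01 and 1.00 (limma adjusted p = 0.867, 0.854 and 0.969). IDS, the iduronate sulfatase, was below the filter at 0.753 ± 0.101 FPKM in siPGC1a and 0.715 ± 0.0892 FPKM in siNC libraries (SD, n = 3 each) and was not tested. A pseudogene of IDS exists. Whether reads shared with it were dropped in the counting was not tested, and the level of IDS is uncertain.

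Some calls of small falls among the hydrolases were lost when single libraries were left out. Leaving out a library also weakens the test, so a lost call need not mean a changed difference. The log2 difference of MAN2B1 was -0.168 with all libraries, -0.169 without siNC replicate 3 and -0.144 without siNC replicate 2. Besides PSAP, CTSZ lost its call without siPGC1a replicate 1, siNC replicate 2 or siNC replicate 3 (limma adjusted p = 0.0675, 0.0852 and 0.112, in a range of 0.000755 to 0.112 over all settings). MAN2B1 lost it without siNC replicate 2 or 3 (0.0626 and 0.0516, in a range of 0.00564 to 0.0626), and GAA without siNC replicate 2 (0.0646, in a range of 0.00515 to 0.0827). PPT1 lost it without siPGC1a replicate 2, siNC replicate 1 or siNC replicate 3 (0.0504, 0.0529 and 0.0572, in a range of 0.000541 to 0.0572). LIPA, CTSK, CTSO, ASAH1, NAGLU, CTSF, HEXA, MANBA and GLB1 kept their direction and call in all 15 other settings that were run.

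The sorting genes were divided between the receptors. IGF2R, the large cation-independent mannose 6-phosphate receptor, had 13.5, 13.1 and 12.6 FPKM in siPGC1a libraries, against 17.7, 18.3 and 17.7 FPKM in siNC libraries. M6PR, the small cation-dependent receptor of the same tag, had 59.6, 62.7 and 63.3 FPKM in siPGC1a libraries, against 47.4, 46.9 and 47.7 FPKM in siNC libraries. In neither gene did the groups overlap. IGF2R fell by 27.3% (log2 difference -0.43, SE 0.0423, limma adjusted p = 4.52e-05) and M6PR rose by 30.7% (log2 difference 0.38, SE 0.0381, limma adjusted p = 5.19e-05).

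SCARB2, which carries glucocerebrosidase to lysosomes independently of mannose 6-phosphate, fell as well. It had 18.1, 16.7 and 18.4 FPKM in siPGC1a, against 25.8, 24.1 and 24.6 FPKM in siNC libraries, all lower, and fell by 28.7% (log2 difference -0.47, SE 0.0481, limma adjusted p = 6.2e-05). GNPTAB, which encodes subunits of the phosphotransferase that starts the tag, had 14.4, 13.3 and 14.7 FPKM in siPGC1a, against 17.1, 15.9 and 15.5 FPKM in siNC libraries. It fell by 12.6% (limma adjusted p = 0.0180), a call lost without siPGC1a replicate 2 (0.0574) and without siNC replicate 1 (0.0636), in a range of 0.00564 to 0.0710.

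MCOLN1, the lysosomal cation channel mucolipin, had 4.95, 5.06 and 4.99 FPKM in siPGC1a, against 3.83, 4.403 and 3.95 FPKM in siNC libraries. Its siPGC1a values were all higher, a rise of 23.1% (log2 difference 0.25, SE 0.0536, limma adjusted p = 0.00421). The structural membrane proteins did not pass. LAMP1 and LAMP2, the heavily glycosylated proteins that line the lysosomal membrane, had ratios of 1.01 and 0.952 (limma adjusted p = 0.747 and 0.330), and LAMP1 turned to a log2 difference of -0.090 under quantile scaling. CD63, a tetraspanin of late endosomes and the most abundant of this set, had 234.6, 248.7 and 249.9 FPKM in siPGC1a, against 227.1, 233.2 and 234.9 FPKM in siNC libraries, which overlapped (limma adjusted p = 0.119). It was called without siPGC1a replicate 1 (limma adjusted p = 0.0354, and 0.0141 to 0.292 over all settings).

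**Figure D3:**
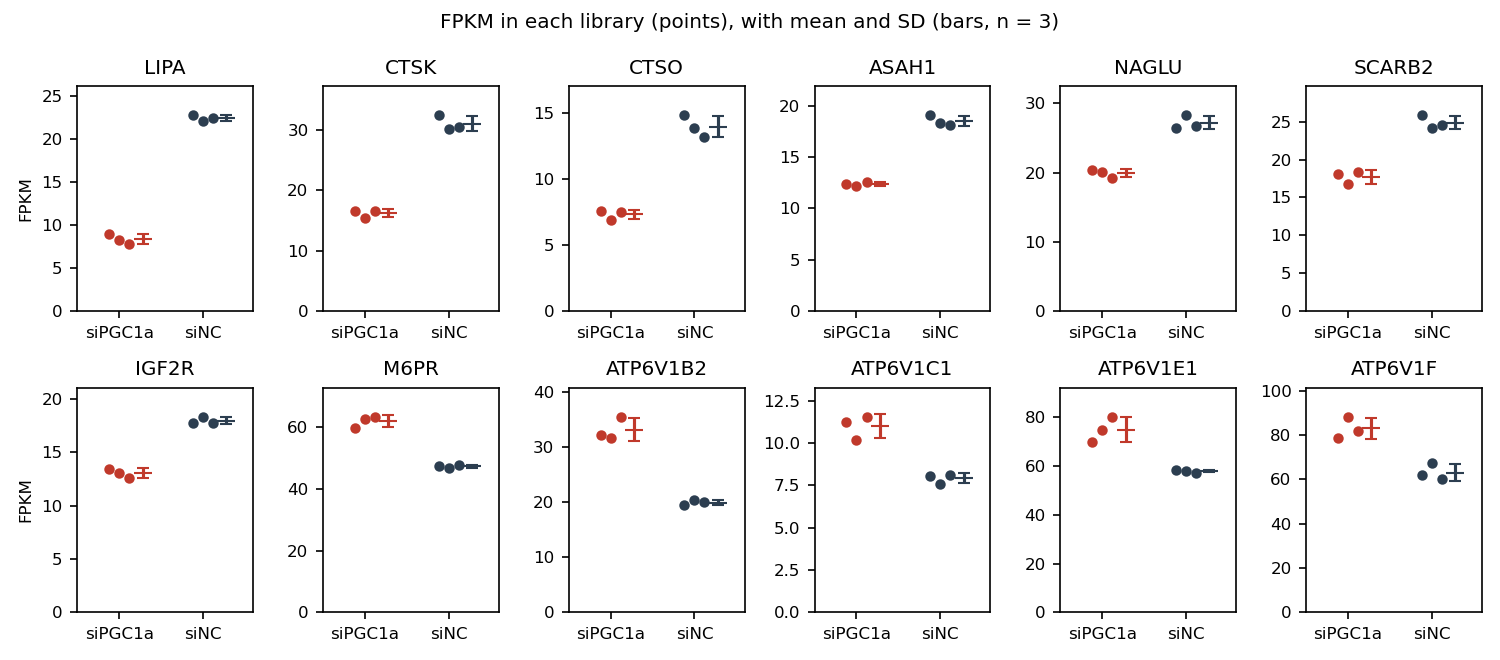
FPKM of 12 members in each library (points), with the mean and SD (bars, n = 3), siPGC1a left of siNC; every y axis starts at 0. LIPA, CTSK, CTSO, ASAH1, NAGLU, SCARB2 and IGF2R are lower in siPGC1a, and M6PR and the pump genes are higher, with no overlap in any panel.

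The V-ATPase joins a cytosolic sector, V1, that splits ATP, to a membrane sector, V0, that passes protons. Of all genes tested, 25.6% were called higher, and pump genes outside the members, given below, were divided. Among the members, all 8 V1 genes rose, with a median difference of 0.35 on the log2(FPKM + 1) scale. All 4 tested V0 genes of the members rose too, with a median of 0.17 on that scale. The direction of these 12 was the same under every scaling tried, and the number of pump genes called higher stayed between 10 and 12. ATP6V1B2, a subunit of the ATP-binding head, had 32.2, 31.7 and 35.5 FPKM in siPGC1a libraries, against 19.4, 20.4 and 19.98 FPKM in siNC libraries. No siPGC1a value came near the siNC values, and the rise, the largest among the pump genes, was 66.3% (log2 difference 0.70, SE 0.0492, limma adjusted p = 7.34e-06).

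ATP6V1A, the catalytic subunit that forms the head together with the B subunit, differed less, with 16.0 ± 0.974 FPKM in siPGC1a and 14.1 ± 0.292 FPKM in siNC libraries (SD, n = 3 each, limma adjusted p = 0.0184). This call was lost without siPGC1a replicate 1 (0.0634) and without siNC replicate 2 (0.0604), in a range of 0.00852 to 0.0693. ATP6V1C1, which is released when the pump comes apart, had 11.3, 10.2 and 11.5 FPKM in siPGC1a, against 8.05, 7.57 and 8.12 FPKM in siNC libraries. The groups did not overlap, and the rise was 39.0% (log2 difference 0.43, SE 0.0539, limma adjusted p = 0.000194).

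ATP6V1F, part of the rotor and the most abundant pump transcript per length, had 78.9, 88.2 and 81.9 FPKM in siPGC1a, against 61.8, 67.3 and 60.2 FPKM in siNC libraries, a rise of 31.5% without overlap (limma adjusted p = 0.000356). ATP6V1E1, of the outer stalks, had 69.8, 74.6 and 80.0 FPKM in siPGC1a, against 58.2, 57.8 and 57.2 FPKM in siNC libraries. Its siPGC1a libraries varied more than its siNC libraries but all lay higher, a rise of 29.5% (limma adjusted p = 0.000288). ATP6V1G1, the partner of the E subunit in those stalks, rose by 26.6%, ATP6V1H, a regulatory subunit, by 17.7%, and ATP6V1D, the rotor shaft, by 17.2% (limma adjusted p = 0.000616, 0.00297 and 0.00400).

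In the V0 sector, ATP6V0B, a proteolipid of the rotating ring, rose by 26.0% (limma adjusted p = 0.000414). ATP6V0A1, which forms the path of the protons, rose by 15.7%, ATP6V0D1, which links ring and rotor, by 13.4%, and the small subunit gene ATP6V0E1 by 12.9% (limma adjusted p = 0.00978, 0.00965 and 0.0130). The ATP6V0D1 call was lost without siNC replicate 3 (0.0529, in a range of 0.00276 to 0.0529). ATP6AP1, an accessory protein of pump assembly, averaged 48.8 ± 2.37 FPKM in siPGC1a and 46.7 ± 2.02 FPKM in siNC libraries (SD, n = 3 each, limma adjusted p = 0.320), and its log2 difference of 0.061 turned to -0.013 under quantile scaling. ATP6V0C, the main proteolipid of the ring, stood at 0.084 to 0.163 FPKM in siPGC1a and 0.028 to 0.134 FPKM in siNC libraries, at most 6 reads in any library. ATP6V0C was left out of the fit. Pseudogene copies of it exist, and whether reads shared with them were dropped in the counting was not tested.

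Lysosomal genes outside the 47 were counted in the same way. Of 34 other hydrolases and co-factors, 32 were tested, and 17 fell, 2 rose and 13 did not pass. That is 53.1% lower and 6.25% higher, against 22.5% and 25.6% of all genes tested. SCPEP1, a serine carboxypeptidase, fell to 21.4 ± 0.679 FPKM in siPGC1a, against 30.3 ± 0.556 FPKM in siNC libraries (SD, n = 3 each, limma adjusted p = 1.88e-05). CTSS, a cysteine protease best known from antigen-presenting cells, fell to 2.19 ± 0.133 FPKM, against 3.25 ± 0.278 FPKM in siNC libraries (SD, n = 3 each, limma adjusted p = 0.000562). ACP5, the tartrate-resistant acid phosphatase, rose by 14.4% (limma adjusted p = 0.00263). LGMN, an asparaginyl endopeptidase, rose by 8.31% (limma adjusted p = 0.0291), a call lost without any one library other than siPGC1a replicate 1 (0.0507 to 0.0972, in a range of 0.0267 to 0.535 over all settings).

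Of 51 other membrane, sorting and nutrient-sensing genes, 46 were tested, and 10 rose, 11 fell and 25 did not pass. These shares, 21.7% higher and 23.9% lower, were near those of all genes tested, 25.6% and 22.5%. The largest falls were those of SLC17A5, the sialic acid exporter, SORT1, a sorting receptor, and NPC2, a luminal sterol carrier. SLC17A5 had 4.36 ± 0.353 FPKM in siPGC1a and 8.41 ± 0.354 FPKM in siNC libraries (SD, n = 3 each, limma adjusted p = 8.13e-06). SORT1 and NPC2 fell by 29.2% and 26.0% (limma adjusted p = 5.66e-05 and 2.13e-05). OSTM1, the partner of a lysosomal chloride exchanger, ABCB9, a peptide transporter, and RRAGD, a Rag GTPase of amino acid sensing, had the largest rises, at 36.3%, 43.3% and 32.4% (limma adjusted p = 0.000550, 0.000322 and 0.000751).

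Of 20 other genes of the pump and its assembly, 13 were tested, and 2 rose, 3 fell and 8 did not pass. That is 15.4% higher and 23.1% lower, against 25.6% and 22.5% of all genes tested. TCIRG1, an alternative form of the proton-path subunit, rose by 26.9%, and the assembly factor TMEM199 by 25.9% (limma adjusted p = 0.000470 and 0.00216). Another assembly factor, CCDC115, fell by 24.9%, and so did the alternative subunits ATP6V0E2, by 19.1%, and ATP6V1G2, by 41.0% (limma adjusted p = 0.000926, 0.00492 and 0.00207). ATP6V1G2 was at 0.819 ± 0.0961 FPKM in siPGC1a and 1.39 ± 0.165 FPKM in siNC libraries (SD, n = 3 each), far below ATP6V1G1 at 28.9 ± 0.974 and 22.8 ± 1.37 FPKM in the same groups.

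**Figure D4:**
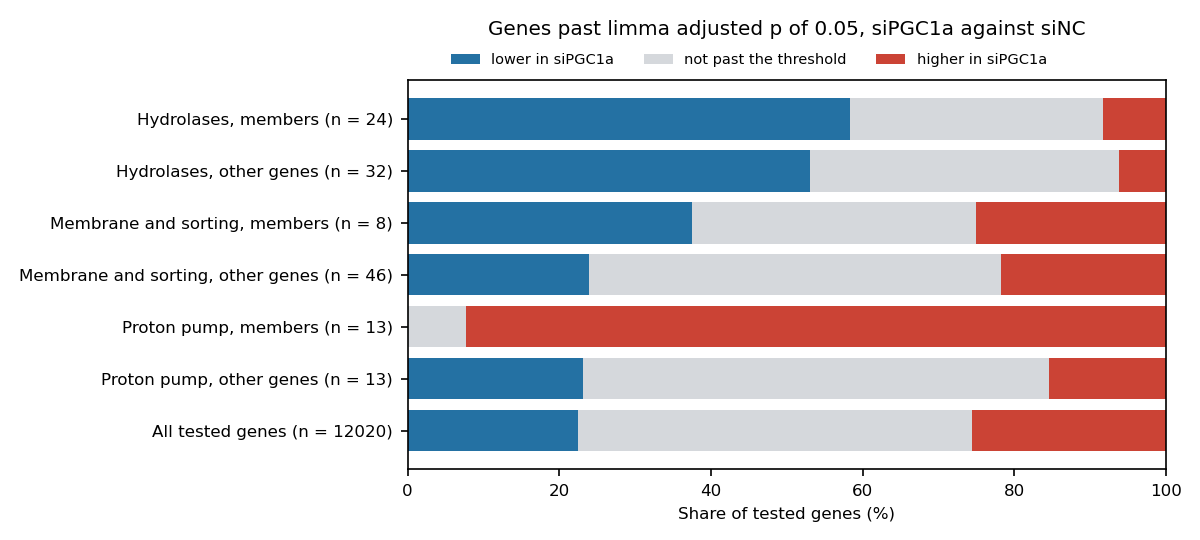
Share of tested genes called lower (left), not past the threshold (middle) and higher (right) in siPGC1a against siNC, for the members, the other genes of each kind and all 12020 tested genes. The hydrolase bars are mostly on the lower side (14 of 24 and 17 of 32), and the member pump bar is almost wholly on the higher side (12 of 13). The bar of the other pump genes is not, with 2 of 13 higher and 3 lower.

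The TFEB family members differed in level and direction. MITF, the member that defines melanocytes, had 5.82, 5.35 and 5.39 FPKM in siPGC1a, against 7.29, 7.09 and 7.34 FPKM in siNC libraries, and fell by 23.8% (limma adjusted p = 0.000335). TFE3, the most abundant of the family here, had 19.4, 20.2 and 19.5 FPKM in siPGC1a, against 16.4, 17.3 and 16.7 FPKM in siNC libraries, and rose by 17.5% (limma adjusted p = 0.00163). In both genes the groups did not overlap. TFEB, at 0.929 ± 0.222 FPKM in siPGC1a and 1.07 ± 0.191 FPKM in siNC libraries, and TFEC, at 0.021 ± 0.00656 and 0.018 ± 0.0115 FPKM in the same groups (SD, n = 3 each), were below the filter and not tested.

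Promoters of members were searched for the palindrome TCACGTGA, the element described for TFEB-family control of lysosomal genes, which reads the same on both strands and contains the shorter E-box CACGTG. RefSeq promoters (250 bases before to 50 after a start, GRCh38.p14) matched 32 of the 47 members. The palindrome stood in 7 of these 32 genes (21.9%), against 2.38% of 9009 tested genes and 1.18% of all 27305 genes with a promoter, and CACGTG in 13 of the 32 (40.6%), against 12.9% of the tested genes. Among the other lysosome, pump and TFEB family genes described above, 82 had a promoter, and 11.0% of them held the palindrome and 25.6% held CACGTG. Of the 7, GAA and IGF2R fell, MCOLN1, ATP6V0D1 and ATP6V1G1 rose, and LAMP1 and CTSA did not pass. Among the genes searched, the element stood in 2 of 10 members that fell and in 3 of 11 that rose. All members that fell numbered 17 and all that rose 16, so many were not searched. No promoter was matched for CTSK, CTSO, ASAH1, NAGLU, PSAP, ATP6V1B2 or ATP6V1C1, among which are several of the largest changes. A match is a description of these letters and not a shown binding site. The members were chosen as lysosomal genes, for which the element was described, so their share is no result of the siRNA. The stretches that hold it are printed below in the direction of transcription, with the palindrome in capitals, to show its place and repeats.
GAA: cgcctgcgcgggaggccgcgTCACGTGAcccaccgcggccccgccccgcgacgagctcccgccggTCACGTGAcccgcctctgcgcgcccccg
IGF2R: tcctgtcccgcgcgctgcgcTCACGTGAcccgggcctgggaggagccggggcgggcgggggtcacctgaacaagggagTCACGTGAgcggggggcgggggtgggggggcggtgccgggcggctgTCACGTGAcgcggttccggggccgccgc
MCOLN1: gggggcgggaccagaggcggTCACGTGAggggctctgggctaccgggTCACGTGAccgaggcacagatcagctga
ATP6V0D1: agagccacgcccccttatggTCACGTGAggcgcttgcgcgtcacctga
ATP6V1G1: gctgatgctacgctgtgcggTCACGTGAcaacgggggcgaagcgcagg
LAMP1: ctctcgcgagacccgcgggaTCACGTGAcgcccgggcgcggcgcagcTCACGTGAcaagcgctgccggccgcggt
CTSA: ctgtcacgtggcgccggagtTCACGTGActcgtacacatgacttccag

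In GRCh38.p14 these stretches are chr17:80101484-80101576 on the plus strand for GAA, chr6:159968929-159969080 (plus) for IGF2R, chr19:7522562-7522636 (plus) for MCOLN1, chr16:67481190-67481237 (minus) for ATP6V0D1, chr9:114587690-114587737 (plus) for ATP6V1G1, chr13:113297190-113297264 (plus) for LAMP1 and chr20:45891289-45891336 (plus) for CTSA. IGF2R held the palindrome at 3 places, and GAA, LAMP1 and MCOLN1 at 2 places each. Its first base lay between positions -133 and -2 relative to the annotated start in all of them. LIPA, whose 3 annotated promoters were searched, held neither the palindrome nor CACGTG there.

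The 3′ UTRs were searched for the word ACACCT, chosen because earlier results of these libraries were known to show it often in genes that fell. The longest annotated 3′ UTR of each gene in GENCODE v29 was used. The word was held by 33.8% of the 10796 tested genes that could be searched. The share was 48.9% of the 2404 called lower, 22.8% of the 2938 called higher and 33.1% of the 5454 not past the threshold. Because the word was chosen from these libraries, its higher share in genes called lower is not a separate result. Among the 17 members that fell, 4 held it (23.5%), namely LIPA, HEXA, MANBA and IGF2R. None of the 16 members that rose held it, and the 12 that did not pass included 1, CTSB. A shorter 3′ UTR has fewer places for a word, and the median length was 1259 bases in members that fell and 590 bases in members that rose, and 1806 bases in all genes called lower and 1110 bases in all called higher. The shares were not adjusted for length. CTSK, CTSO, ASAH1, NAGLU and SCARB2, which had the largest falls after LIPA together with IGF2R, did not hold it. The sites in the members that fell are printed below with the word in capitals, to show what surrounds it. The LIPA site begins at base 1014 of a 3′ UTR of 1259 bases.
LIPA: atttttaatACACCTgcttcacgt
HEXA: atattccagACACCTgccctaatc
MANBA: ctcttcttgACACCTgtgcatgtt
IGF2R, site 1: ttggttgtcACACCTgggagagtg
IGF2R, site 2: cgttgcctcACACCTgccagaatg

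Exons of a few members overlap a tested gene on the other strand in GENCODE v29. The overlap was 1105 bases for M6PR (with PHC1), 1189 bases for PPT1 (with CAP1), 1238 bases for CTSA (with NEURL2 and PLTP), 269 bases for ATP6V1D (with EIF2S1), 237 bases for CD63 and 65 bases for LIPA (with IFIT2). No source used here gives the strand setting of the authors' counting, and without strand, reads of these genes and their partners could not be told apart.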

How the data were processed

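The deposited values were FPKM per gene and library, which the authors computed. Per the submitters' processing notes, STAR, Picard, featureCounts, DESeq2 and hg19 are listed, with no version given and no step assigned. The members and lists were chosen with earlier results of these data known. Genes with a mean of at least 1 FPKM, and PPARGC1A regardless, gave 12020 tested genes. log2(FPKM + 1) values were compared with limma 3.58.1 in R 4.3.3 (mean-variance trend, two-sided, no replicate block, Benjamini-Hochberg over all tested genes, threshold 0.05). The fit was also run on simulated data, but far fewer genes were changed there than were called here. That run is therefore no support for these calls. Ratios are of mean FPKM.

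Depth was recovered from the FPKM steps of miRNA genes of known length, as the depth at which low values lay closest to whole reads. At that depth, 96.7 to 100% of these low values were whole reads to within 0.1. Chance gives 20% at a depth fixed in advance, and the share by chance after such a search was not computed. Reads per gene use GENCODE v29 exon lengths and are approximate, since the reference is of another build than hg19. Libraries of a group were compared: chi-square per degree of freedom was 1.95 to 5.82 within and 27.2 to 36.5 between groups, so none was a copy.

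Values in each library are given for PPARGC1A, the 6 largest called falls and 4 largest called rises of each member group and its most abundant member, and for MITF and TFE3; TFEB and TFEC are given as means. Of the other lists, the 3 largest called falls and rises are named. A gene that the rule takes is not reported here. Alternatives were pseudocount 0.1, no filter or one of 5 FPKM, rescaling to equal totals (TPM), quantile and median scaling, no trend, sample weights, a replicate block and leaving out each library.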

Additional observations from a re-analysis of the deposited data

How the results depend on the processing

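Of the 33 members called, 24 kept direction and call in all settings run and 9 lost the call in at least 1, among them ATP6V0E1 without a filter and under quantile scaling (limma adjusted p = 0.0579 and 0.0587). Of the 12 members not called, 5 were called in at least 1 setting. The hydrolases called lower numbered 10 to 16 and the pump genes called higher 10 to 12 over all settings, and without 1 library 10 to 14 and 11 to 12.

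With a filter of 5 FPKM, the count for siPGC1a against siNC, all genes, lower, was 1607, 1 membrane and sorting member was called higher (MCOLN1 was below the filter), 0 of the other pump genes were called lower, and the median of the membrane and sorting members was -0.072. Fewer genes were tested there. Under quantile scaling the medians were -0.21 for the hydrolases and -0.12 for the membrane and sorting members, LAMP1 turned to -0.090 (limma adjusted p = 0.0453), and PSAP gave a difference of 0. The other hydrolases called higher numbered 1 in place of 2 when rescaled to TPM, under quantile scaling and without a trend, and 1 to 2 without 1 library; membrane and sorting members numbered 2 to 3 lower and 2 to 3 higher without 1 library. The cause was not tested. Deviations of same-numbered libraries correlated at 0.077, 0.26 and -0.058, and those of differently numbered libraries at -0.33 to 0.25. The highest value was that of the pair numbered 2, while siPGC1a replicate 3 correlated best with siNC replicate 1. These values do not settle whether the libraries were paired. The labels state no pairing, so the numbers were not taken as pairs in the main fit. With the replicate block, 15 hydrolases were lower, 2 higher and 12 pump genes higher, and TPP1 and CD63 were called (limma adjusted p = 0.0453 and 0.0496). IDS, at 156 to 202 reads per library, and ATP6V0C, at 1 to 6 reads, were left out by the filter of 1 FPKM.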
